A study of Mus musculus with 16 samples.

Results

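Glycogen metabolism and glucose transport were followed through 9 genes in mRNA of mouse quadriceps muscle. They were Pygm, Gys1, Phka1, Phkg1, Gbe1, Ppp1r3a, Ppp1r3c, Slc2a4 and Slc2a1, chosen by gene symbol, and all 9 were among the 13320 genes measured. The 16 libraries came from male CD2F1 mice that received their injections at the age of 8 weeks, in 4 groups of 4. The splenic C26 group had received C26 cells, a mouse colon carcinoma line known for muscle wasting, into the spleen as a model of spread to the liver. Sham mice underwent the operation and received saline. The subcutaneous C26 group carried the same line under the skin, and its control group is named in the labels without a statement of what it received. The number of weeks between injection and collection is not given in the sources used here, and every tumour result rests on 1 tumour line in 1 strain and sex. The labels do not say that libraries were separate animals, so the p-values below cover only the variation among these samples, and part of it may be technical.

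Skeletal muscle stores glucose as glycogen and burns it during contraction. Glycogen synthase extends the chains, the branching enzyme adds branch points, and glycogen phosphorylase breaks the chains down. Phosphorylase kinase, which senses calcium through a calmodulin subunit, switches phosphorylase on, while protein phosphatase 1, held on the glycogen particle by targeting subunits, reverses this and activates the synthase. Glucose enters the fibre through GLUT4, which insulin and contraction bring to the cell surface, and through GLUT1, which stays there at rest.

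Levels are given as CPM, read counts brought to 1 common library size after TMM factors that correct for library composition, and a gene was said to rise or fall where its edgeR quasi-likelihood p, adjusted over all 13320 genes by the Benjamini-Hochberg method, was under 0.05. Total counts were 25.9 to 34.9 M reads per library. The 10 fast-fibre markers, among them Myh4, summed to 102000 to 258000 CPM in the 16 libraries. Splenic C26 replicate 1 (-6.31) and subcutaneous C26 replicate 3 (6.0) stood apart from their groups on principal component 1, where tumour-free libraries lay at -60.8 to -55.4 and the remaining 6 tumour libraries at 64.6 to 93.3. The calls of the 9 genes are therefore also given without these 2 libraries where they change, and so are list counts that move by over 1.5 times. The 2 were picked from the same data as the tumour libraries nearest to the tumour-free ones. Calls gained without them are therefore not independent evidence. Upper-quartile scaling in place of TMM put the median change over the whole table at -0.236 (splenic C26) and -0.26 (subcutaneous C26) on the log2 scale, and the share of calls that were higher went from 54.0% to 38.5% and from 53.9% to 34.9%. In whole muscle, fewer cells of a type and less RNA per cell cannot be told apart.

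In splenic C26 muscle, 5 of the 9 genes were higher than in sham (Gys1, Gbe1, Ppp1r3c, Slc2a4 and Slc2a1), none was lower, and 4 did not pass. Of all 13320 genes, 28.1% were higher, 23.9% were lower and 52.0% passed in either direction, so the 5 of 9 that passed were close to the share of all genes. The median log2 fold change was 0.43 over the 9 genes and -0.03 over all genes. In subcutaneous C26 muscle, 1 of 9 was higher than in control (Ppp1r3c) and none was lower, beside 27.0% higher, 23.1% lower and 50.0% in either direction among all genes. The median was 0.06 over the 9 genes and -0.02 over all genes. Without the 2 libraries that stood apart, 5 genes were higher and 3 lower (Phka1, Phkg1 and Ppp1r3a) in splenic C26, where 65.3% of all genes passed. In subcutaneous C26, 1 was then higher (Gys1) and 2 were lower (Phka1 and Phkg1), where 62.6% of all genes passed.

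**Figure D1:**
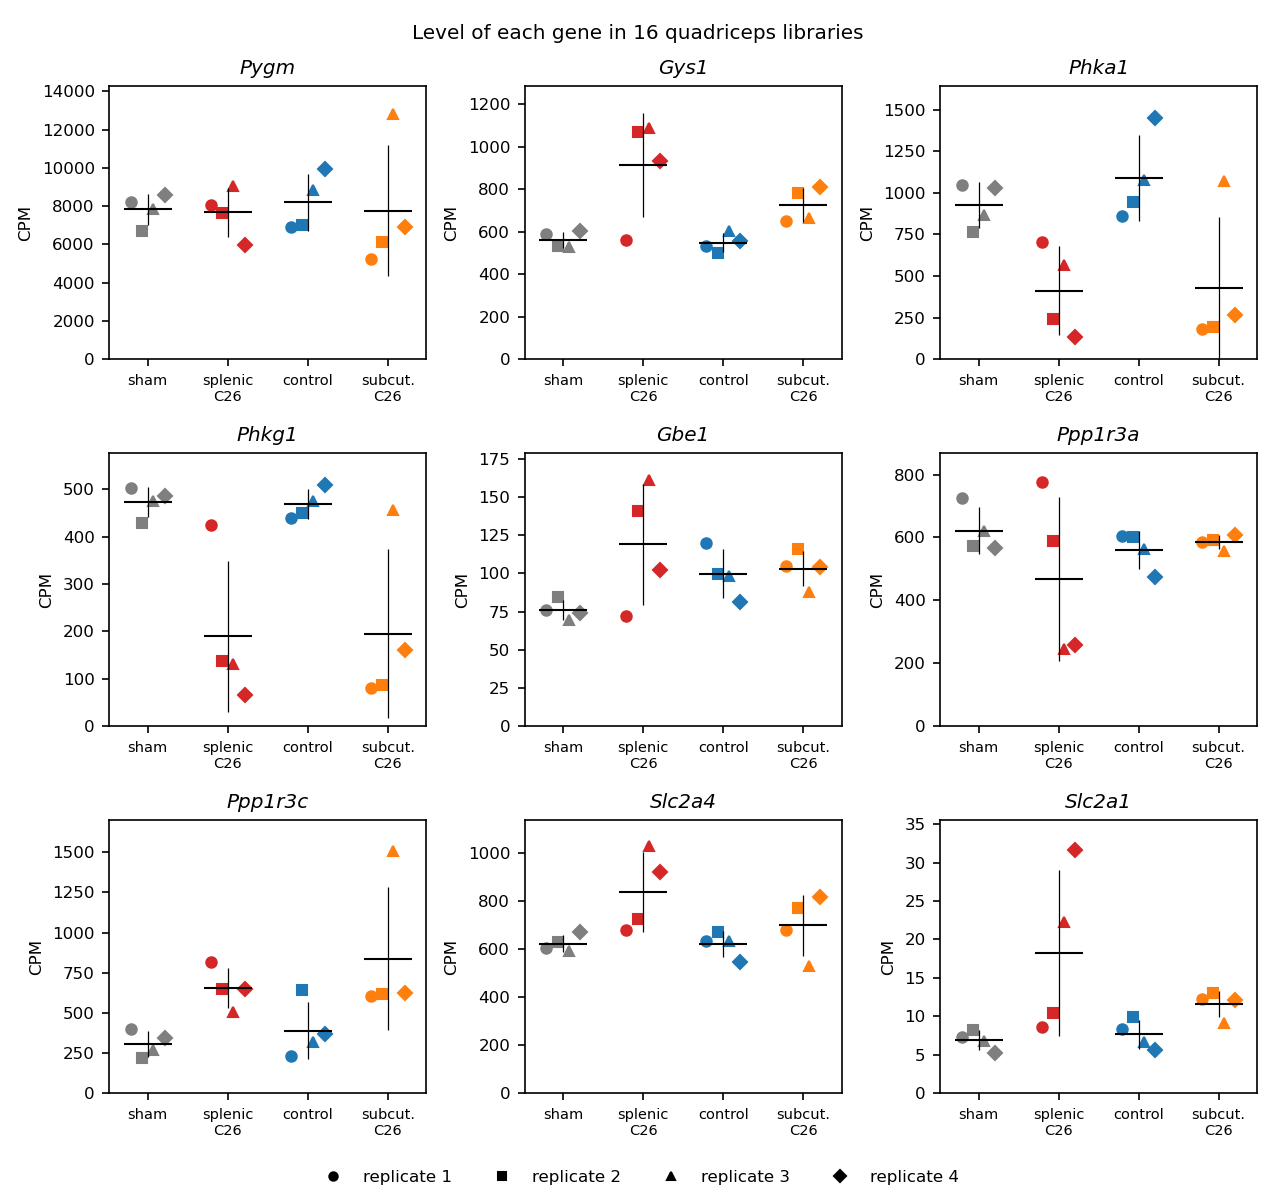
Level of each of the 9 genes (CPM, linear axis from 0) in every library, by group, with the group mean (horizontal line) and 1 SD (vertical line, cut at 0), n = 4 libraries per group. In 7 of 8 tumour libraries Phka1 and Phkg1 lay below every tumour-free library (762 and 429 CPM at the lowest), while subcutaneous C26 replicate 3 sat among them at 1070 and 456 CPM.

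Per kilobase of annotated exon, Pygm stood far above the rest in sham muscle, at 2430 ± 252 CPM per kb (SD, n = 4). Slc2a4 followed at 180 ± 10.4, then Phka1 at 148 ± 22.3, Gys1 at 118 ± 7.88, Ppp1r3c at 113 ± 29.3, Ppp1r3a at 89.3 ± 10.7 and Phkg1 at 72.6 ± 4.76 CPM per kb. Gbe1 was at 14.2 ± 1.2 and Slc2a1 at 1.96 ± 0.37 CPM per kb. The libraries of Gys1 (110 to 125 CPM per kb) lay inside the range of Ppp1r3c (79.3 to 146 CPM per kb). The latter range also overlapped those of Ppp1r3a (81.3 to 104) and Phka1 (122 to 168). Overlap of ranges does not show that these neighbours were equal, because the levels per kilobase were not compared within each library. Pygm, Slc2a4, Phkg1, Gbe1 and Slc2a1 did not overlap any other of the 9 in sham, although Slc2a4 (170 at the lowest) came close to Phka1 and Phkg1 (77.1 at the highest) to Ppp1r3c. The order depends on the lengths used, all exons of a gene in GENCODE M21, and the annotation used for counting is not given. For Phkg1 this length was 6.51 kb, in a gene that begins before its RefSeq start, and a shorter length would raise its level per kilobase. The muscle forms dominated their families: per exon kilobase, Pygm made up 98.9% to 99.9% of the phosphorylase genes in sham libraries, and Gys1 made up 97.9% to 99.9% of the synthase genes.

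Phosphorylase kinase was represented by Phka1, its muscle regulatory alpha subunit (mm10 chrX:102513975-102644246, minus strand), and Phkg1, its muscle catalytic gamma subunit (chr5:129863421-129898549, minus strand). Their transcripts varied together, so the upstream sequences are shown. Each run below is the RefSeq sequence (GRCm38.p6) of the 250 bases before the gene's start, 5′ to 3′ on the gene's strand, at chrX:102644247-102644496 for Phka1 and chr5:129879089-129879338 for Phkg1. The RefSeq start of Phkg1 lies inside the longer GENCODE gene. Capitals mark the E-box letters CANNTG, the core bound by many helix-loop-helix factors, and this motif was picked for display after the matches were seen.
Phka1: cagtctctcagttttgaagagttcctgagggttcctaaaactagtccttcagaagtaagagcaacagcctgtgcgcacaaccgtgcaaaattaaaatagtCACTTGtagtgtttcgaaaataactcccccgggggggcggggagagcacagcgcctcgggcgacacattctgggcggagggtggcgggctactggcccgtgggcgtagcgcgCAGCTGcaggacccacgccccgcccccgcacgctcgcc
Phkg1: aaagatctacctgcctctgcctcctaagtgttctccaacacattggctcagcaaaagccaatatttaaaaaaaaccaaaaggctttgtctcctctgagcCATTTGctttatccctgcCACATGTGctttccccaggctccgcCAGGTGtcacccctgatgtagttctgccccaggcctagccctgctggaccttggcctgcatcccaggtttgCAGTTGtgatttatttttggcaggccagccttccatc
Both strands were searched, where CANNTG reads as itself. Phkg1 held 5 matches, of which those starting at -133 and -131 overlap, and Phka1 held 2, at -150 and -38. Of 32851 RefSeq promoters, 66.2% held the motif in 250 bases, so it does not set these genes apart. Phka1 also held 1 match to ACANNNTGT, a glucocorticoid receptor core present in 5.84% of promoters. Neither held GTAAACA (3.17% of promoters), TTCNNNGAA (7.02%), ACGTG (16.6%), CACGTG (6.02%) or TATAAA (12.4%), which says only that these letters are not in this window.

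Phka1 measured 1050, 762, 867 and 1030 CPM in sham replicates 1 to 4. In splenic C26 it measured 705, 241, 566 and 131 CPM. All 4 splenic C26 libraries were below all sham libraries, with replicate 1 nearest to them. Its log2 fold change was -1.18 ± 0.56 (SE), a level of 0.442 of sham, with an adjusted p of 0.0872. In control muscle Phka1 measured 862, 948, 1080 and 1450 CPM, and in subcutaneous C26 it measured 183, 191, 1070 and 268 CPM. Replicate 3 was within the control range and the other 3 libraries were far below it. This gave a log2 fold change of -1.35 ± 0.56 (SE), with an adjusted p of 0.0569.

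Phkg1 measured 502, 429, 475 and 485 CPM in sham, and 424, 137, 130 and 65.6 CPM in splenic C26. The groups did not overlap, but splenic C26 replicate 1 was only just below the lowest sham library. On the log2 scale the change was -1.32 ± 0.55 (SE), with an adjusted p of 0.0535. In control muscle Phkg1 measured 439, 449, 474 and 509 CPM, against 79.6, 85.6, 456 and 160 CPM in subcutaneous C26. Again replicate 3 was at the control level and the other 3 were not. The change was -1.26 ± 0.54 (SE), with an adjusted p of 0.0658.

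Neither subunit passed in the main test, and both passed with other tests on the same libraries. With DESeq2, limma-voom and limma-trend the adjusted p of Phka1 was 0.0449, 0.0418 and 0.0315 in splenic C26 and 0.0167, 0.0203 and 0.0136 in subcutaneous C26. With the same tools that of Phkg1 was 0.0194, 0.0187 and 0.0137, and 0.0222, 0.0224 and 0.0152. Without splenic C26 replicate 1 alone, Phka1 fell by 1.56 (adjusted p = 0.0315) and Phkg1 fell by 2.08 (adjusted p = 0.00214) on the log2 scale. Without subcutaneous C26 replicate 3 alone, Phka1 fell by 2.34 (adjusted p = 0.000634) and Phkg1 fell by 2.109 (adjusted p = 0.00201). Of their groups, these 2 libraries lay nearest to the tumour-free libraries for both genes. Larger falls without them follow from that choice and are not further evidence. Calls over all genes also rose, from 6931 to 8201 in splenic C26 and from 6665 to 7547 in subcutaneous C26. Phka1 and Phkg1 were the 2 of 9 genes whose splenic C26 libraries all lay below sham, beside 21.1% of all genes, and none of the 9 did so in subcutaneous C26, beside 20.7%.

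**Figure D2:**
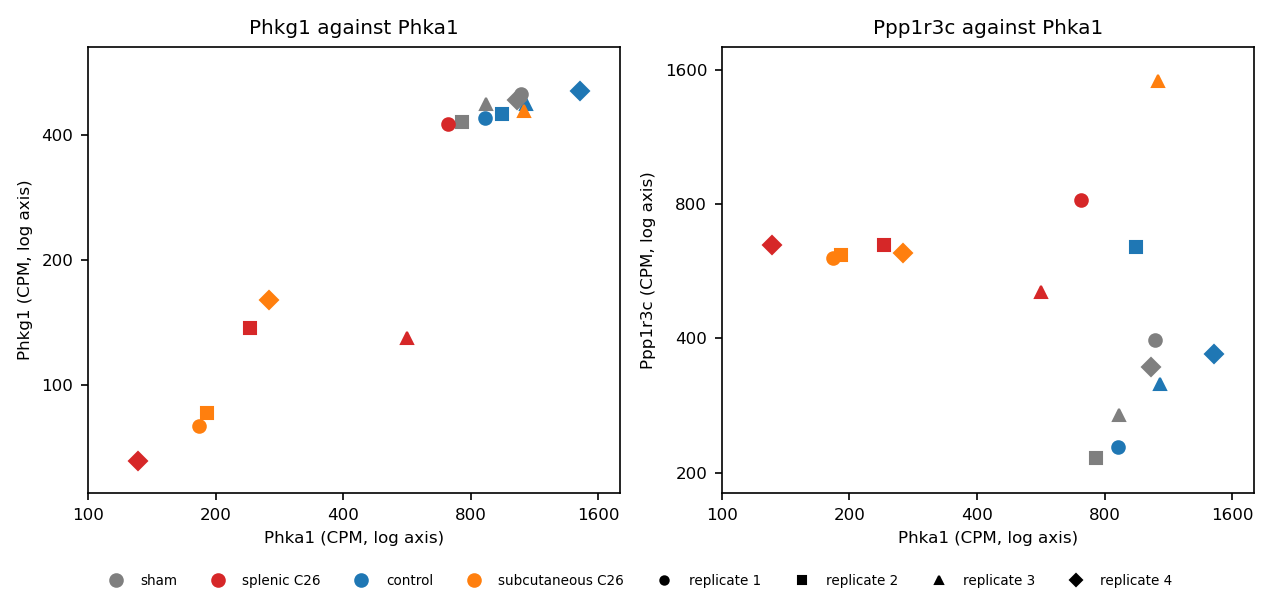
Phkg1 (left) and Ppp1r3c (right) against Phka1, in CPM on log axes, with 1 point per library, coloured by group and shaped by replicate number. In the left panel subcutaneous C26 replicate 3 sits with the tumour-free libraries, splenic C26 replicate 1 lies just below them (705 CPM of Phka1 and 424 CPM of Phkg1), and splenic C26 replicate 3 lies off the trend at 566 CPM of Phka1 and 130 CPM of Phkg1. In the right panel the 2 libraries have the highest Ppp1r3c levels, 816 and 1510 CPM.

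The count ratio of Phkg1 to Phka1 stayed between 0.352 and 0.564 in the 8 tumour-free libraries. In tumour libraries it was 0.427 to 0.601, except in splenic C26 replicate 3, where it was 0.229. The liver forms, Phka2 and Phkg2, took a larger part where the muscle forms were low. Phka1 made up 97.4% to 99.0% of Phka1 and Phka2 per exon kilobase in sham and 86.7% to 98.1% in splenic C26. Phkg1 made up 97.2% to 97.8% of Phkg1 and Phkg2 in sham, 77.4% to 96.8% in splenic C26, 97.1% to 97.8% in control and 83.3% to 97.1% in subcutaneous C26. These shares follow from the same counts, depend on the exon lengths used, and are given without a test. In all, 3 genes of the count table overlap Phkg1 (Sumf2, Chchd2 and Zbed5) and no source used here gives the strand setting, so their reads in shared stretches cannot be told apart. Of 10 fast-fibre markers, 3 were lower and 1 higher in splenic C26 and 4 were lower in subcutaneous C26, and their part in these values was not tested.

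Of 5 other genes of phosphorylase kinase, Calm2 and Calm3, which encode calmodulin and serve many enzymes besides this one, fell in both comparisons, and the liver and testis catalytic subunit Phkg2 rose. Splenic C26 had 1 higher and 2 lower of 5, with a median log2 fold change of -0.18, and subcutaneous C26 had 1 higher and 2 lower, with a median of -0.08. Calm2 fell by 1.89 ± 0.31 (SE) in splenic C26 (adjusted p = 0.000365), from 168 ± 18.7 to 45.2 ± 21.6 CPM (SD, n = 4). In subcutaneous C26 it fell by 1.64 ± 0.31 (adjusted p = 0.000887). Calm3 fell by 1.89 ± 0.54 (adjusted p = 0.0103) and by 1.48 ± 0.54 (adjusted p = 0.0325), and this second call was lost on leaving out any 1 of 5 libraries (control replicates 3 and 4, subcutaneous C26 replicates 1, 2 and 4), with adjusted p of 0.0581 to 0.0787. Phkg2 rose by 0.58 ± 0.14 (adjusted p = 0.00327) and by 0.37 ± 0.14 (adjusted p = 0.0369), and the second call was lost without any 1 of 7 of its 8 libraries (0.0508 to 0.143), the exception being subcutaneous C26 replicate 3. Upper-quartile scaling (0.385) and a filter of 5 CPM on average (0.118) also lost this second call. Phkb, the beta subunit, gave -0.18 ± 0.22 and -0.08 ± 0.22 and did not pass.

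Pygm, muscle glycogen phosphorylase, whose loss causes McArdle disease (chr19:6384399-6398459, plus strand), had group means of 7670 to 8190 CPM. It measured 8230, 6700, 7830 and 8570 CPM in sham and 8040, 7630, 9030 and 5970 CPM in splenic C26. The ranges overlapped and the log2 fold change was -0.03 ± 0.25 (SE, adjusted p = 0.926). It measured 6930, 7020, 8850 and 9950 CPM in control and 5210, 6100, 12800 and 6920 CPM in subcutaneous C26. Subcutaneous C26 replicate 3 was the highest of all 16 libraries, and the other 3 were below the lowest control library. The log2 fold change was -0.08 ± 0.25 (adjusted p = 0.818), and -0.43 ± 0.19 without the 2 libraries that stood apart (adjusted p = 0.0565).

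Of the other genes of glycogen breakdown, Gaa rose in both comparisons. Gaa, the lysosomal acid glucosidase that is deficient in Pompe disease, rose by 2.25 ± 0.31 (SE) in splenic C26 (adjusted p = 0.000114), from 247 ± 32.2 to 1170 ± 508 CPM (SD, n = 4). In subcutaneous C26 it rose by 2.1 ± 0.31, or 4.31-fold (adjusted p = 0.000163), from 247 ± 13.2 to 1070 ± 323 CPM. The brain and liver phosphorylases Pygb and Pygl did not pass in either comparison in the main test. In subcutaneous C26 Pygb was lower with DESeq2 (adjusted p = 0.0396), with upper-quartile scaling (0.0332) and without subcutaneous C26 replicate 3 (0.046). In a fit of these 8 libraries alone, both Pygb (0.0386) and Pygl (0.0498) were lower. Of the 4 genes of this list 1 was higher in each comparison, none was lower, and the median log2 fold changes were -0.5 and -0.47.

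Gys1, the muscle glycogen synthase (chr7:45434844-45456619, plus strand, overlapping Ruvbl2 on the other strand), measured 590, 533, 529 and 601 CPM in sham. In splenic C26 it measured 563, 1070, 1090 and 935 CPM. Replicates 2 to 4 were above every sham library and replicate 1 was inside the sham range. Gys1 rose by 0.70 ± 0.18 on the log2 scale (SE), or 1.62-fold, with an adjusted p of 0.00534. In control it measured 532, 500, 605 and 555 CPM, against 650, 781, 663 and 811 CPM in subcutaneous C26. Every subcutaneous C26 library was above every control library, and Gys1 was the 1 gene of 9 with such a gap upwards, beside 25.2% of all genes. Its log2 fold change was 0.41 ± 0.18 with an adjusted p of 0.0718. It passed in a fit of these 8 libraries alone (0.0387) and without the 2 libraries that stood apart (0.00346).

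Gbe1, the branching enzyme (chr16:70313949-70569716, plus strand), measured 76.0, 84.6, 69.2 and 73.9 CPM in sham and 72.2, 141, 161 and 102 CPM in splenic C26. Here too replicate 1 was within the sham range and the other 3 were above it. Gbe1 rose by 0.65 ± 0.20 (SE), or 1.57-fold, with an adjusted p of 0.014. The call was lost without splenic C26 replicate 3 (log2 fold change 0.47, adjusted p = 0.0583) and with upper-quartile scaling (0.42, adjusted p = 0.0584). In control Gbe1 measured 120, 99.5, 98.1 and 81.0 CPM, and in subcutaneous C26 it measured 105, 116, 88.0 and 104 CPM. All 4 subcutaneous C26 libraries lay inside the control range, and the log2 fold change was 0.05 ± 0.20 (adjusted p = 0.85).

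The count ratio of Pygm to Gys1 set breakdown beside synthesis within each library, without a test. It was 12.6 to 14.8 in sham and 13.0 to 17.9 in control. In splenic C26 replicates 2 to 4 it was 7.13, 8.29 and 6.39, and in subcutaneous C26 replicates 1, 2 and 4 it was 8.01, 7.82 and 8.53. Splenic C26 replicate 1, at 14.3, was within the tumour-free range, and subcutaneous C26 replicate 3, at 19.3, was above it.

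**Figure D3:**
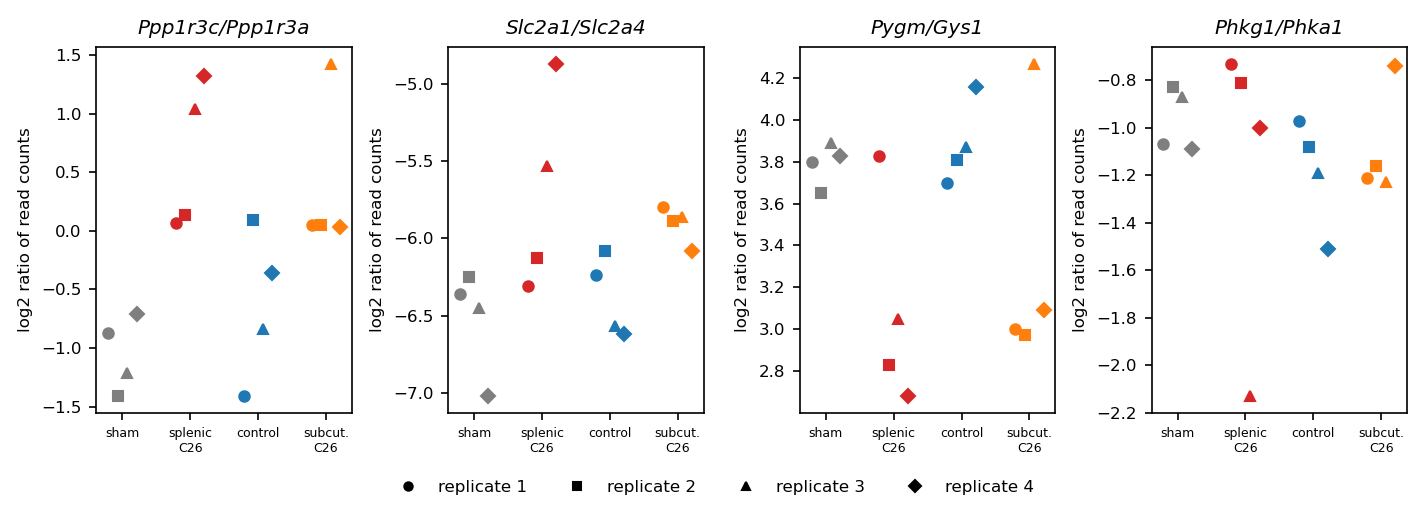
Log2 ratio of the read counts of 2 genes in each library, by group (colour) and replicate (shape), for Ppp1r3c to Ppp1r3a, Slc2a1 to Slc2a4, Pygm to Gys1 and Phkg1 to Phka1. The Pygm to Gys1 ratio was 2.68 to 3.09 in 6 tumour libraries and 3.65 to 4.16 in the tumour-free ones, with splenic C26 replicate 1 at 3.83 and subcutaneous C26 replicate 3 at 4.27.

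Other genes of glycogen synthesis moved in both directions. Of 11 measured genes, 7 were higher and 3 lower in splenic C26 (median log2 fold change 0.57), and 6 were higher and 2 lower in subcutaneous C26 (median 0.42). The list also holds kinase genes that act on the synthase, and Gsk3a, Gsk3b, Csnk2a2 and Csnk2b were among those higher in both comparisons. Gsk3a was named after its values were seen. The remaining genes higher in both were Ugp2 and Gyg, so the counts are not a measure of synthesis. Over the whole table the shares were 28.1% up and 23.9% down for splenic C26, and 27.0% up and 23.1% down for subcutaneous C26. Ugp2, which makes the UDP-glucose that the synthase uses, rose by 1.92 ± 0.32 (SE) in splenic C26 (adjusted p = 0.000361), from 575 ± 57.8 to 2170 ± 968 CPM (SD, n = 4). It rose 4.43-fold in subcutaneous C26 (adjusted p = 0.000201), from 597 ± 71.5 to 2650 ± 1010 CPM. Gyg, the glycogenin that primes the particle, rose by 1.04 ± 0.22 (adjusted p = 0.00166) and by 1.34 ± 0.22 (adjusted p = 0.000363). Gsk3b, a kinase that inhibits the synthase, rose by 1.25 ± 0.22 in subcutaneous C26 (adjusted p = 0.000481). Its rise of 0.56 ± 0.22 in splenic C26 (adjusted p = 0.042) was lost without any 1 sham library or without splenic C26 replicate 1 or 2 (0.057 to 0.139). It was also lost with limma-voom and limma-trend (0.0564 in both), upper-quartile scaling (0.174) and a filter of 5 CPM on average (0.0751). Csnk2a2 and Csnk2b, subunits of casein kinase 2, which also phosphorylates the synthase, rose by 1.12 ± 0.18 (adjusted p = 0.000288) and 0.75 ± 0.15 (adjusted p = 0.0012) in splenic C26, and by 1.05 ± 0.18 and 0.56 ± 0.15 in subcutaneous C26.

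The genes of synthesis that fell in both comparisons were Pgm2 and Gys2, named after their values were seen. Pgm2, a phosphoglucomutase, fell by 2.03 ± 0.56 (SE) in splenic C26 (adjusted p = 0.00776), from 1410 ± 202 to 347 ± 248 CPM (SD, n = 4). In subcutaneous C26 it fell by 1.79 ± 0.55 (adjusted p = 0.0151), from 1470 ± 191 to 427 ± 452 CPM. Gys2, the liver synthase, was near the limit of measurement, at 2.28 ± 2.72 CPM in sham and 0.371 ± 0.346 CPM in splenic C26, and fell by 2.57 ± 0.92 (adjusted p = 0.0291). In subcutaneous C26 it fell by 2.56 ± 0.88 (adjusted p = 0.0256), from 3.55 ± 2.99 to 0.598 ± 0.39 CPM. Gys2 lost both calls without the 2 libraries that stood apart (adjusted p of 0.0588 and 0.0533). It also lost the call in splenic C26 without sham replicate 2 (log2 fold change -1.29, adjusted p = 0.21) or splenic C26 replicate 3 or 4 (0.0647 and 0.0716), and in subcutaneous C26 without control replicate 1 (0.105) or subcutaneous C26 replicate 2 or 4 (0.0696 and 0.0629). In splenic C26, limma-voom (0.0961) and a fit of the 8 libraries alone (0.0673) lost the Gys2 call too. Of 9 hepatocyte markers measured, 7 were higher in splenic C26 and 8 lower in subcutaneous C26, and without the 2 libraries 1 was higher (Apoc3) and 8 were lower. Splenic C26 replicate 1 had a hepatocyte sum of 221 CPM and the other 3 of its group had 28.2 to 48.9 CPM, beside 31.8 to 91.4 CPM in sham, 96.5 to 291 in control and 67.6 to 148 in subcutaneous C26. The sums include Trf, which did not pass (log2 fold changes of -0.21 and 0.42). The other 8 fell by 3.13 (Apoc3) to 7.91 (Ttr) in subcutaneous C26, so the sums do not give the level of these 8. Adipocyte markers summed to 1650 CPM in sham replicate 2, beside 185 to 558 in other sham libraries. They summed to 1340 CPM in control replicate 1, beside 357 to 651 in other control libraries. Pygl was also highest of its group in these libraries (108 and 122 CPM). Adipocyte sums were 389 to 960 CPM in splenic C26 and 476 to 1040 CPM in subcutaneous C26. The part of hepatocyte and adipocyte transcripts in the values of liver-type genes was not tested.

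Ppp1r3c encodes the targeting subunit PTG, which brings protein phosphatase 1 to glycogen in many tissues (chr19:36731731-36736653, minus strand). It was the 1 gene of 9 that passed in both comparisons. Its upstream sequence (RefSeq, GRCm38.p6, chr19:36736654-36736854, 5′ to 3′ on the minus strand, ending at the annotated start) is shown because it held the most matches to ACGTG, the core bound by hypoxia-inducible factors, among the 8 genes with a promoter entry. Capitals mark these matches on either strand, and the motif was picked after the matches were seen.
Ppp1r3c: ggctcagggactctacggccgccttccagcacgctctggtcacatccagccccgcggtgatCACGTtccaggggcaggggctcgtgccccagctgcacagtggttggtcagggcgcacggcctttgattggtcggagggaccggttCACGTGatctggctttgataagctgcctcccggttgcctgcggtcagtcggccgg
The 3 matches start at -189, -104 and -103, and the last 2 overlap on opposite strands within the palindrome CACGTG. Positions count back from the RefSeq start, which lies further downstream than the end of the printed run. Of 32851 promoters, 16.6% held ACGTG and 6.02% held CACGTG. Pygm and Slc2a1 held 1 ACGTG each. A match is a description of the sequence and not of binding.

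Ppp1r3c measured 397, 216, 269 and 345 CPM in sham and 816, 648, 507 and 647 CPM in splenic C26. Every splenic C26 library was above every sham library, with replicate 1 the highest. Ppp1r3c rose by 1.09 ± 0.34 (SE), or 2.1-fold, with an adjusted p of 0.0159. In control it measured 228, 640, 316 and 369 CPM, and in subcutaneous C26 it measured 606, 614, 1510 and 622 CPM. Control replicate 2 was above 3 of the 4 subcutaneous C26 libraries, and subcutaneous C26 replicate 3 was far above all others. Ppp1r3c rose by 1.11 ± 0.34, or 2.2-fold, with an adjusted p of 0.0153. Without that library the log2 fold change was 0.66 and the call was lost (adjusted p = 0.0629), as it was with upper-quartile scaling (0.88, adjusted p = 0.052).

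Ppp1r3a, the muscle targeting subunit also known as the glycogen-associated regulatory subunit (chr6:14713977-14755274, minus strand), measured 727, 573, 622 and 566 CPM in sham. In splenic C26 it measured 776, 590, 246 and 258 CPM. Replicates 3 and 4 were below every sham library, while replicate 1 was above them all. The log2 fold change was -0.41 ± 0.29 (SE, adjusted p = 0.237). Without replicate 1 it fell by 0.76 (adjusted p = 0.0154). In control it measured 604, 602, 564 and 475 CPM, and in subcutaneous C26 it measured 584, 593, 558 and 609 CPM, a narrow range. Its log2 fold change was 0.06 ± 0.29 (adjusted p = 0.869).

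Set side by side in each library, Ppp1r3c had fewer reads than Ppp1r3a in 7 of 8 tumour-free libraries and more in all 8 tumour libraries, in read counts that are not scaled for gene length. The ratio was 0.377 to 0.61 in sham and 1.05, 1.1, 2.06 and 2.5 in splenic C26. It was 0.377, 1.06, 0.56 and 0.777 in control and 1.04, 1.04, 2.7 and 1.02 in subcutaneous C26. Control replicate 2 was thus above 3 of the 4 subcutaneous C26 libraries. No test was made of these ratios.

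Among 9 measured genes for other targeting, catalytic and inhibitor subunits of this phosphatase, 1 was higher and 1 lower in splenic C26 (median 0.18), and none was higher and 1 lower in subcutaneous C26 (median 0.07). Of all genes, 52.0% passed in splenic C26 and 50.0% in subcutaneous C26. Without the 2 libraries that stood apart, 5 were higher and 2 lower in splenic C26, where 65.3% of all genes passed. In subcutaneous C26, 1 was then higher and 2 were lower, where 62.6% of all genes passed. Ppp1r3b, the liver targeting subunit, fell by 2.43 ± 0.56 (SE) in subcutaneous C26 (adjusted p = 0.00273), from 9.09 ± 5.81 to 1.69 ± 0.298 CPM (SD, n = 4). Its fall of 1.45 ± 0.54 in splenic C26 (adjusted p = 0.0342) was lost without sham replicate 2 or 3 or splenic C26 replicate 2, 3 or 4 (0.0529 to 0.132). It was also lost with limma-voom (0.13), limma-trend (0.0813) and a fit of the 8 libraries alone (0.0577). Ppp1r1a, inhibitor 1 of the phosphatase, rose by 0.62 ± 0.18 in splenic C26 (adjusted p = 0.0118), a call lost with upper-quartile scaling (0.0755). In subcutaneous C26 Ppp1r1a gave 0.34 ± 0.18 (adjusted p = 0.133).

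**Figure D4:**
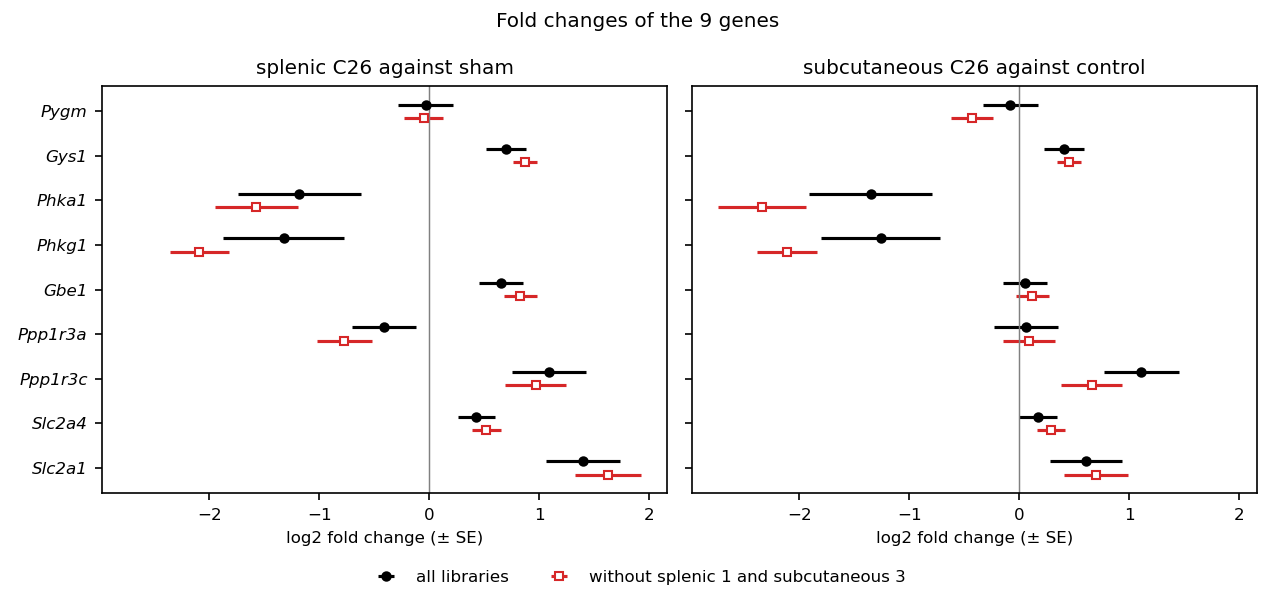
Log2 fold change of each gene with its standard error in splenic C26 against sham (left) and subcutaneous C26 against control (right), from all 16 libraries (black circles) and without splenic C26 replicate 1 and subcutaneous C26 replicate 3 (red squares). Phka1 moved from -1.35 to -2.34 and Phkg1 from -1.26 to -2.109 in subcutaneous C26, and Ppp1r3c from 1.11 to 0.66.

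Slc2a4 encodes GLUT4, the insulin-responsive glucose transporter of muscle and fat (chr11:69942539-69948188, minus strand). It measured 604, 629, 591 and 673 CPM in sham and 680, 725, 1030 and 924 CPM in splenic C26. All 4 splenic C26 libraries were above all sham libraries, replicate 1 only just. Slc2a4 rose by 0.43 ± 0.17 (SE), or 1.34-fold, with an adjusted p of 0.0417. This call was lost under more alternatives than the other 4: it was lost without any 1 sham library, without splenic C26 replicate 3 or 4 (adjusted p of 0.0552 to 0.138 over these 6), in a fit of the 8 libraries alone (0.0635), and with upper-quartile scaling (0.236). In control Slc2a4 measured 633, 672, 633 and 546 CPM, and in subcutaneous C26 it measured 680, 772, 529 and 820 CPM. Replicate 3 was below every control library and the other 3 were above. The log2 fold change was 0.17 ± 0.17 (adjusted p = 0.397), and -0.07 with upper-quartile scaling.

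Slc2a1 encodes GLUT1, a transporter of many cell types including endothelium and perineurium (chr4:119108711-119137983, plus strand). It had the fewest reads of the 9, 151 to 814 per library. It measured 7.35, 8.27, 6.75 and 5.18 CPM in sham and 8.58, 10.4, 22.3 and 31.6 CPM in splenic C26. Every splenic C26 library was above every sham library, with replicates 3 and 4 far above and replicate 1 close. Slc2a1 rose by 1.40 ± 0.34 (SE), or 2.64-fold, with an adjusted p of 0.00352, the largest log2 rise of the 9 genes. In control it measured 8.4, 9.92, 6.65 and 5.56 CPM, and in subcutaneous C26 it measured 12.2, 13.0, 9.11 and 12.1 CPM. Replicates 1, 2 and 4 were above every control library and replicate 3 was within their range. The log2 fold change was 0.61 ± 0.33 (adjusted p = 0.14), which passed in a fit of these 8 libraries alone (0.0287). With Ppp1r3c and Slc2a4, Slc2a1 made 3 of 9 genes whose splenic C26 libraries all lay above sham, beside 21.1% of all genes.

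Markers of red blood cells, endothelium and perineurium moved as well. The 2 red blood cell markers measured of 8 (Slc4a1 and Alas2) summed to 4.02 to 5.63 CPM in sham, 11.4 to 44 in splenic C26, 3.7 to 12.4 in control and 8.09 to 114 in subcutaneous C26. Of these, 2 were higher in splenic C26 and 1 in subcutaneous C26, where both passed without the 2 libraries that stood apart. The 8 endothelial markers summed to 228 to 285 CPM in sham and 229 to 401 in splenic C26 (6 higher, 1 lower), and to 286 to 317 in control and 176 to 226 in subcutaneous C26 (1 higher, 4 lower). The 5 perineurial markers measured of 6 summed to 9.26 to 12.4 CPM in sham and 3.48 to 11.3 in splenic C26, with 3 lower (5 without the 2 libraries), and to 8.94 to 14.4 in control and 2.57 to 6.72 in subcutaneous C26, with 5 lower. Splenic C26 replicates 3 and 4, the highest for Slc2a1, were also the highest of their group for red blood cell markers, at 44 and 38 CPM. Subcutaneous C26 replicate 4 had the highest sum of all, 114 CPM, with Slc2a1 at 12.1 CPM. The endothelial and perineurial sums of splenic C26 were highest in replicate 1 (401 and 11.3 CPM), where Slc2a1 was lowest of the group (8.58 CPM). The part of these cells in the Slc2a1 values was not tested.

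The count ratio of Slc2a1 to Slc2a4 was 0.00769 to 0.0131 in sham and 0.0126 to 0.0342 in splenic C26. It was 0.0102 to 0.0148 in control and 0.0148 to 0.018 in subcutaneous C26. GLUT1 reads thus stayed a small fraction of GLUT4 reads in all 16 libraries.

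The other sugar transporters that passed were all lower, and most were scarce. Of 8 measured, 4 were lower in splenic C26 (median log2 fold change -0.94) and 5 in subcutaneous C26 (median -1.07), beside 23.9% and 23.1% of all genes. Slc2a5, the fructose transporter GLUT5, fell by 3.48 ± 0.92 (SE) in splenic C26 (adjusted p = 0.00603), from 1.0 ± 0.854 to 0.0897 ± 0.103 CPM (SD, n = 4). In subcutaneous C26 it fell by 5.43 ± 0.89 (adjusted p = 0.000336), from 4.31 ± 3.41 to 0.0951 ± 0.0436 CPM. Slc2a10 fell by 1.5 ± 0.35 (adjusted p = 0.00279) and 1.14 ± 0.35 (adjusted p = 0.0136), and Slc2a13, an inositol transporter, by 1.75 ± 0.41 (adjusted p = 0.00298) and 1.25 ± 0.40 (adjusted p = 0.0187). Slc2a9, a urate transporter, fell by 1.09 ± 0.37 (adjusted p = 0.0243) and 1.17 ± 0.37 (adjusted p = 0.016). Slc2a13 in subcutaneous C26 lost its call without control replicate 2 or subcutaneous C26 replicate 2, and Slc2a9 in splenic C26 without sham replicate 2 or splenic C26 replicate 2, 3 or 4. A fit of the 8 libraries alone also lost the splenic C26 call of Slc2a9 (adjusted p = 0.075). Of 8 markers of fibro-adipogenic progenitors, 6 were lower and none higher in splenic C26, and 4 were lower and 1 higher (Ly6a) in subcutaneous C26, and their part in these falls was not tested.

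Of 22 genes that move GLUT4 vesicles, 8 were higher and 2 lower in splenic C26 (median 0.19), and 12 were higher and none lower in subcutaneous C26 (median 0.41), where 2 were lower without the 2 libraries that stood apart. Over the whole table the shares were 28.1% up and 23.9% down for splenic C26, and 27.0% up and 23.1% down for subcutaneous C26. Aspscr1, the tether TUG that holds GLUT4 inside the cell, rose by 1.88 ± 0.27 (SE, adjusted p = 0.000171) and 1.51 ± 0.27 (adjusted p = 0.000594). Its mean went from 20.0 ± 1.45 to 73.7 ± 29.4 CPM and from 21.4 ± 0.98 to 61.0 ± 17.5 CPM (SD, n = 4). Akt2, the insulin-signalling kinase, rose by 1.13 ± 0.17 in subcutaneous C26 (adjusted p = 0.00022) and by 0.48 ± 0.17 in splenic C26 (adjusted p = 0.0274), a call lost without sham replicate 1, 2 or 4 or splenic C26 replicate 2 or 3 (0.0525 to 0.0841). Upper-quartile scaling also lost the splenic C26 call of Akt2 (0.156). Tbc1d4, the Akt substrate AS160 that restrains GLUT4 vesicles, rose by 1.27 ± 0.31 in subcutaneous C26 (adjusted p = 0.00375). Its rise of 0.77 ± 0.30 in splenic C26 (adjusted p = 0.0447) was lost without any 1 sham library or splenic C26 replicate 1 or 2 (0.0639 to 0.197), and without the 2 libraries (0.129). Limma-voom (0.134), limma-trend (0.128), upper-quartile scaling (0.134), a fit of the 8 libraries alone (0.118) and a filter of 5 CPM on average (0.0699) lost it too. Vamp2 and Rab14, of vesicle fusion and sorting, rose by 0.66 ± 0.11 (adjusted p = 0.000371) and 0.69 ± 0.16 (adjusted p = 0.00241) in splenic C26 and by 0.57 ± 0.11 and 0.82 ± 0.16 in subcutaneous C26. Cltb, a clathrin light chain, rose by 1.07 ± 0.20 in splenic C26 (adjusted p = 0.000848), and its rise of 0.59 ± 0.20 in subcutaneous C26 (adjusted p = 0.0258) was lost on leaving out any 1 of 4 libraries (control 1 and 2, subcutaneous C26 2 and 4, adjusted p of 0.071 to 0.0815). Upper-quartile scaling also lost the subcutaneous C26 call of Cltb (0.101).

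Of 9 measured hexokinase and glucose-sensing genes, 3 were higher and 1 lower (2 without the 2 libraries that stood apart) in splenic C26 (median 0.08), and 2 were higher and 2 lower in subcutaneous C26 (median -0.18). Klf15, a transcription factor of muscle fuel metabolism, rose by 2.21 ± 0.32 (SE, adjusted p = 0.00017) and 2.2 ± 0.32 (adjusted p = 0.000177). Hk2, the insulin-responsive hexokinase of muscle, rose by 1.64 ± 0.53 in splenic C26 (adjusted p = 0.018). That call rested on replicate 3, without which the log2 fold change was 0.64 (adjusted p = 0.155), and it was also lost with limma-voom, limma-trend and a fit of 8 libraries. In subcutaneous C26 the log2 fold change was 0.31 ± 0.52 (adjusted p = 0.637). Mlxipl, the glucose-responsive factor ChREBP, fell by 0.50 ± 0.11 (adjusted p = 0.00254) and 0.83 ± 0.12 (adjusted p = 0.000129). Txnip, which limits glucose uptake, gave 0.39 ± 0.29 in splenic C26 (adjusted p = 0.266) and fell by 0.91 ± 0.29 in subcutaneous C26 (adjusted p = 0.0173).

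Of 7 subunits of AMPK, the energy-sensing kinase that binds glycogen, 1 was higher and 2 lower in splenic C26 (median -0.25), and 2 were higher and 1 lower in subcutaneous C26 (median -0.13). Without the 2 libraries that stood apart, 2 were higher and 3 lower in each comparison, where 65.3% and 62.6% of all genes passed. Prkag3, the gamma subunit of fast glycolytic muscle, fell by 3.21 ± 0.53 (SE, adjusted p = 0.000372), from 130 ± 16.8 to 14.0 ± 12.1 CPM (SD, n = 4). In subcutaneous C26 it fell by 2.78 ± 0.52 (adjusted p = 0.000848), from 122 ± 19.6 to 17.8 ± 12.4 CPM. The catalytic subunit Prkaa1 fell by 0.52 ± 0.13 in splenic C26 (adjusted p = 0.00432). In subcutaneous C26 its log2 fold change was -0.26 ± 0.13 (adjusted p = 0.105, and 0.0497 without the 2 libraries), with all 4 libraries below control. Its muscle counterpart Prkaa2 rose by 0.84 ± 0.18 in subcutaneous C26 (adjusted p = 0.00194). In splenic C26 its log2 fold change was 0.34 ± 0.18 (adjusted p = 0.125, and 0.0454 without the 2 libraries). Prkab1 rose by 0.57 ± 0.12 (adjusted p = 0.00148) and by 0.36 ± 0.12 (adjusted p = 0.0208), and the second call was lost on leaving out any 1 of 5 libraries (control 2 and 3, subcutaneous C26 1, 2 and 4, adjusted p of 0.0545 to 0.11). Upper-quartile scaling (0.381) and a filter of 5 CPM on average (0.105) also lost this second call. Over all 78 measured genes of the pathway lists, 22 were higher and 15 lower in splenic C26 (median 0.08), and 24 were higher and 13 lower in subcutaneous C26 (median 0.02). The share that passed was 47.4% in each comparison, beside 52.0% and 50.0% of all genes, so the lists as a whole did not exceed the share of all genes. Without the 2 libraries, 27 were higher and 21 lower in each comparison. Of all genes, 65.3% then passed in splenic C26 and 62.6% in subcutaneous C26, where 4198 of 13320 were lower.

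**Figure D5:**
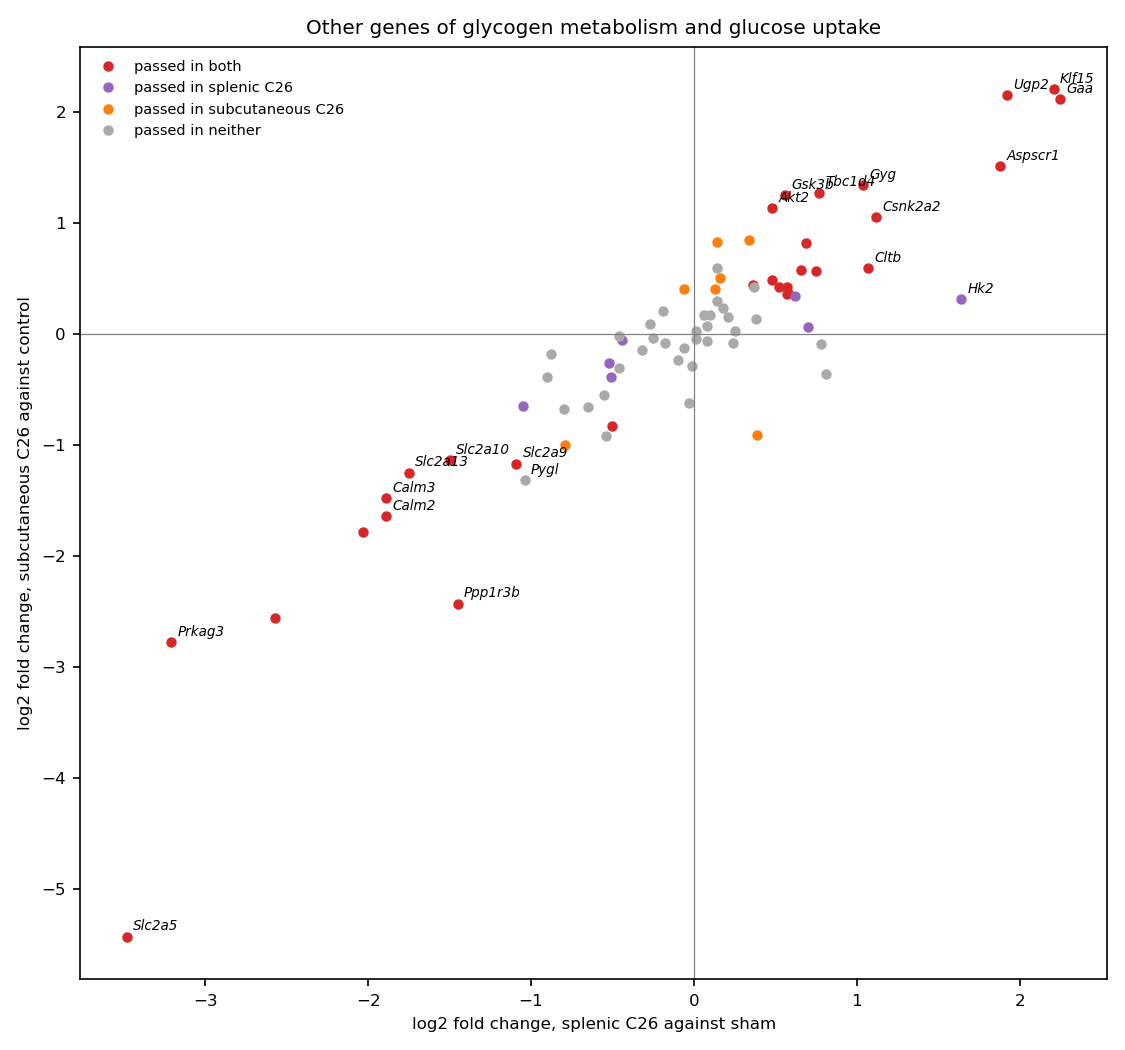
Log2 fold changes of the 78 other genes of glycogen metabolism and glucose uptake in splenic C26 against sham (x axis) and subcutaneous C26 against control (y axis), with 1 point per gene, coloured by which comparison passed. Ugp2, Gaa, Klf15 and Aspscr1 lie at the upper right, and Prkag3 (-3.21 and -2.78) and Slc2a5 (-3.48 and -5.43) at the lower left.

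Whether the tumour effect differed between the sites was tested as the splenic C26 effect minus the subcutaneous C26 effect. Library titles of the sham and splenic C26 groups share a prefix, and those of the control and subcutaneous C26 groups share another. The meaning of these prefixes is not given in the sources used here. Tumour site, operation and any difference between the sets of libraries thus cannot be told apart. None of the 9 genes passed with edgeR, none had an unadjusted p under 0.05, and the 9 differences ran from -0.47 (Ppp1r3a) to 0.79 (Slc2a1). DESeq2 gave 1 of 9 at an unadjusted p under 0.05 and 0 after adjustment, and limma-voom and limma-trend gave 0 at either. Gbe1 had the smallest p, with a difference of 0.60 ± 0.28 (SE, adjusted p = 0.78), and that of Slc2a1 was 0.79 ± 0.47 (adjusted p = 0.865). Among all genes 0 of 13320 passed (0.0%), with 851 at an unadjusted p under 0.05, while DESeq2 called 86 and limma-voom and limma-trend 0. The 78 other pathway genes gave no call either, so a gene that passed at 1 site only is not shown to differ between sites.

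Sham and control muscle, both tumour-free, gave no call among the 9 genes with edgeR, DESeq2, limma-voom or limma-trend, adjusted or at an unadjusted p under 0.05. These groups also differ in title prefix, so any difference between the sets of libraries would be part of this comparison. The log2 differences of sham from control ran from -0.39 (Gbe1, adjusted p = 1.0) to 0.15 (Ppp1r3a). Of all genes, 1 of 13320 passed (0.00751%), and 285 had an unadjusted p under 0.05.

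Among the genes outside the 9, those nearest in pattern were found by the root mean square difference of centred log2 CPM over the 16 libraries, where 0 is an identical pattern. Pygm was nearest to Ckm, the muscle creatine kinase (0.0806), and to Phkb (0.118). Gys1 was nearest to Tomm40 (0.107) and Psmb6 (0.108), and Slc2a4 to Atad3a (0.119) and Leng1 (0.121). Ppp1r3a was nearest to Nek1 (0.145) and Zfp719 (0.159), and Gbe1 to Gpx4 (0.184) and Mtch1 (0.206). Phkg1 was nearest to Fam189b (0.203) and Fn3k (0.205), Slc2a1 to Yrdc (0.211) and Cttn (0.238), and Phka1 to Fsd2 (0.251) and Ak1 (0.292). Ppp1r3c had the most distant neighbours, Lonrf3 (0.37) and Adcy4 (0.398).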

How the data were processed

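Quadriceps RNA was isolated and sequenced as 75-base paired ends on a HiSeq instrument, per the labels' protocols. The authors deposited raw read counts per gene symbol, made with featureCounts per the labels, and the submitters' processing notes name FastQC, STAR, edgeR and mm10. No source used here gives versions, annotation or strand setting. A second deposited table held log2 values, equal to log2 CPM up to 1 constant per gene and library (residual SD 0.0018 over 8287 genes). Of the count table, 4013 blank lines without a gene were left out, and all 13320 genes exceeded 0.5 CPM in 4 libraries, which points to a filter by the authors.

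Groups came from the labels, and replicate numbers follow accession order. Libraries of a group differed by a chi-square of at least 13 per degree of freedom, so none was taken for a repeat. The test was edgeR's robust quasi-likelihood F test (edgeR 4.0.16, R 4.3.3) with TMM scaling. All 16 libraries entered a single fit with a mean for each group, p-values were adjusted by Benjamini-Hochberg with a threshold of 0.05, and the procedure was tested on simulated data. In the simulation far fewer genes changed than were called here and no library stood apart, so it does not cover these conditions. A standard error is the log2 fold change divided by the square root of F. Exon lengths and mm10 coordinates came from GENCODE M21 (12868 symbols matched, 96.6%), and promoter sequences from RefSeq (8 of the 9 genes). Alternatives were RLE and upper-quartile scaling, removal of the 10 most abundant genes, DESeq2 1.42.0, limma-voom and limma-trend (limma 3.58.1, the latter on the log2 values), a filter of 5 CPM on average, fits of 8 libraries, and omission of single libraries, of the 2 that stood apart, and of 4 with transcripts of other tissues (control replicate 1, subcutaneous C26 replicate 4 and replicates 1 and 3 of splenic C26).

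The 9 genes and the lists were chosen with earlier results of these data known, and the lists as used hold 84 genes, of which 78 were measured; some genes are not reported here. Named were the 9 genes, 18 listed genes, up to 3 genes per list and comparison with the smallest p that passed, and the 2 nearest patterns per gene. Pattern distances used genes of at least 1 CPM on average.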

Additional observations from a re-analysis of the deposited data

Results flagged for a closer look

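A library was set apart where its gap to the nearest library of its group, divided by the group's range, exceeded the 95% critical value of Dixon's test for 4 values. Of 182 groups of values of the 9 genes and the named pathway genes, 13 held such a library, where chance gives about 1 in 20.

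Subcutaneous C26 replicate 3 was the library in 8 of the 13. It was highest for Phka1 (1070 CPM, others 183 to 268), Ppp1r3c (1510 CPM, others 606 to 622), Calm2 (86.2 CPM, others 32.3 to 41.3) and Calm3 (367 CPM, others 79.7 to 83.8). It was also highest for Epm2a, the laforin phosphatase (46.0 CPM, others 14.6 to 19.4), for Ppp1r1a (94.9 CPM, others 52.1 to 56.6) and for Tbc1d1, a relative of AS160 (113 CPM, others 31.5 to 43.5). It was lowest for Gsk3b (149 CPM, others 272 to 296).

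Splenic C26 replicate 1 was highest for Calm2 (77.3 CPM, others 30.9 to 37.7) and for the targeting subunit Ppp1r3d (6.77 CPM, others 1.55 to 2.26). It was lowest for Klf15 (112 CPM, others 192 to 206) and Phkg2 (8.58 CPM, others 11.8 and above). Control replicate 2 was highest for Tbc1d1 (96.1 CPM, others 60.0 to 63.8).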

How the results depend on the processing

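No paired analysis was possible because replicate numbers follow accession order and the labels give none that groups share. Apart from counts, 1523 fold changes of named genes kept direction and call under an alternative, 55 passed newly, 95 lost their call and 23 changed sign. The cause of each change was not tested.

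Among the 9 genes, splenic C26 gave 3 higher with upper-quartile scaling and 3 to 5 without single libraries. It gave 1 lower with upper-quartile scaling and with at least 5 CPM on average, 2 lower with DESeq2, limma-voom, limma-trend and without the 4 libraries with transcripts of other tissues, 3 lower without the 2 libraries that stood apart, and 0 to 3 without single libraries. Subcutaneous C26 gave 0 higher with upper-quartile scaling, 3 in a fit of its 8 libraries and 0 to 1 without single libraries. It gave 1 lower with RLE, 2 lower with upper-quartile scaling, DESeq2, limma-voom, limma-trend, at least 5 CPM or without the 2 libraries, and 0 to 2 without single libraries.

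Changed signs were small and none was a call. With RLE and DESeq2, Hk1 in splenic C26 gave 0.0057 and 0.0059. With upper-quartile scaling and at least 5 CPM, Gbe1 in subcutaneous C26 gave -0.195 and -0.0774 and Ppp1r3a gave -0.179 and -0.0629, and upper-quartile scaling put Slc2a4 at -0.0720. Stbd1 in subcutaneous C26 gave 0.0072 with limma-voom and 0.0096 with limma-trend. Without single libraries, Pygm ran from -0.119 to 0.0785 and Hk1 from -0.221 to 0.104 in splenic C26. In subcutaneous C26 Pygm ran from -0.430 to 0.0435, Gbe1 from -0.0452 to 0.142, Ppp1r3a from -0.0093 to 0.0857, Phkb from -0.31 to 0.0564 and Stbd1 from -0.136 to 0.206.

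Over all genes, sham against control gave 58 calls with DESeq2, 7 with limma-trend, 0 in a fit of 8 libraries, 47 without the 4 libraries, 46 without the 2 libraries and 0 to 7 without single libraries. The difference between sites gave 86 with DESeq2, 257 without the 2 libraries and 0 to 66 without single libraries. Slc2a1, with 151 to 814 reads, had the lowest depth of the 9 genes.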

Other observations

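Several fixed genes of these pathways did not pass in either comparison in the main test. Stbd1, which links glycogen to lysosomes, gave -0.46 ± 0.26 (SE) in splenic C26 (edgeR adjusted p = 0.148) and -0.02 ± 0.26 in subcutaneous C26 (0.953). Epm2a, the laforin phosphatase of glycogen quality control, gave -0.55 ± 0.30 in both (0.134 and 0.139), and without the 2 libraries that stood apart it fell by 0.66 (0.0092) and 1.05 (0.00043). Ppp1r3d, a further targeting subunit, gave -0.65 ± 0.48 and -0.66 ± 0.48 (0.264 in both), and without those libraries it fell by 1.35 (0.00224) and 1.20 (0.00495). Pygb gave -0.54 ± 0.41 and -0.92 ± 0.41 (0.271 and 0.0743), and Pygl gave -1.04 ± 0.72 and -1.32 ± 0.72 (0.237 and 0.14). The alternatives under which Pygb and Pygl passed in subcutaneous C26 are given above. Hk1, the general hexokinase, gave -0.01 ± 0.21 and -0.29 ± 0.21 (0.961 and 0.263). Tbc1d1 gave 0.81 ± 0.41 in splenic C26 (0.109) and -0.36 ± 0.41 in subcutaneous C26 (0.479), and -0.98 without the 2 libraries in the latter (0.0247).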
